A study of Mus musculus with 6 samples.

Results

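This account covers 31 genes of the unfolded protein response and the integrated stress response, out of 35458 gene models measured in CD8+ T cells from mouse spleen. The genes were listed by symbol for their known roles in both pathways, with earlier results of these data known, and all 31 were found in the files and passed the filter on low values described below. They were ordered by role into an ATF4 arm of 9 genes, 4 sensors and transcription factors of the endoplasmic reticulum (ER), and an ER chaperone arm of 18 genes that fold secretory proteins or remove misfolded ones. RNA-seq was run on 3 control libraries from mice of the genotype Cd4cre and 3 knockout (KO) libraries from mice of the genotype Cd4creGlut10fl/fl. Both groups carry Cd4cre, a Cre transgene that is active from T cell development in the thymus and so acts in the CD4+ and the CD8+ lineage. The KO mice add floxed alleles of Glut10, the protein name of the hexose transporter gene Slc2a10. The sources used here do not give age, sex or the exon removed. They also leave unsaid whether each library is a separate mouse, so a p-value below covers only library-to-library spread, part of which may be technical.

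Cells sense unfolded protein in the ER through 3 membrane proteins, encoded by Eif2ak3 (PERK), Ern1 (IRE1) and Atf6. PERK phosphorylates the initiation factor eIF2, which lowers protein synthesis in general but favours translation of Atf4. Other kinases, which respond to amino acid shortage, haem shortage or viral RNA, act on the same factor, and their common output through ATF4 is the integrated stress response. IRE1 splices the mRNA of Xbp1 into its active form, and XBP1 and the released part of ATF6 induce chaperones and degradation factors of the ER. Plasma cells, which secrete antibody, run the XBP1 branch at a high level. T cells use both pathways when they are activated or short of nutrients. The values below are RNA levels of whole genes, so neither phosphorylation of eIF2, translation of Atf4 nor the splicing of Xbp1 was measured.

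All values are FPKM (reads scaled to exon length and library size), a scale on which levels of different genes can be compared. The libraries differed in the RNA of other cells. S100a9, used here as the neutrophil marker, measured 164, 8684 and 16130 FPKM across control 1 to 3, against 100, 25.7 and 353 across KO 1 to 3. Over 12 neutrophil markers the summed level was 424 to 29105 FPKM in the controls, against 67.9 to 623 in KO, and all 11 that were tested were higher in control 2 and control 3 than in the other 4 libraries. Jchain, which links antibody molecules and marks plasma cells, measured 225, 13.5 and 38.3 FPKM in the controls, against 4.76, 154 and 6.88 in KO. The sum of 10 plasma cell markers ranged from 631 to 5703 FPKM in the controls and from 750 to 4085 in the KO libraries, with Tnfrsf17 at 0 in at least 1 library. Immunoglobulin genes, mainly Igkc and Igha, made up most of that sum, and 5 of the 9 plasma cell markers that were tested had control 1 and KO 2 at the top of their groups, as Jchain did. The other 4, Prdm1, Irf4, Ighm and Iglc2, did not. High S100a9 and high Jchain therefore fell in different libraries, the first in control 2 and 3, the second in control 1 and KO 2. Red cell RNA followed neutrophil RNA, with Hbb-bs at 1000 and 484 FPKM in control 2 and 3 and at most 14.7 elsewhere. The 10 T cell markers summed to 411 and 319 FPKM in control 2 and 3 and to 1260 to 2099 in the other 4 libraries, and Cd8a and Cd8b1 were present in every library. All 10 of them also had control 1 and KO 2 at the top of their groups, so Jchain and T cell RNA shared that order. The 10 macrophage markers summed to 73.7 FPKM in KO 2 and to 266 to 502 elsewhere, with Vsig4 at 0 in at least 1 library, and the 5 platelet markers to 62.1 in KO 2, 793 in KO 3 and 95.6 to 341 elsewhere. KO 1 and KO 3 stood apart in depth, at 3420290 and 3004540 implied fragments against 11840600 to 15036300 elsewhere, and had 18934 and 19268 genes at 1 FPKM or more against 12200 to 13713. Slc2a10 was at most 0.0946 FPKM in the controls, on 4, 2 and 2 implied reads, and was listed at 0 in all 3 KO libraries. Values this low cannot show whether the gene was deleted. In bulk RNA, fewer cells of a type and less RNA per cell cannot be told apart.

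The arms also differ in the short DNA elements near their start sites, which are shown here because they mark part of each arm by a feature that uses no value from these libraries. The genes were listed for known roles in these pathways, so the match counts describe the arms and do not test them. Promoter windows of 300 bases (250 before the start and 50 after it) were taken from RefSeq, build GRCm38.p6, for 27 of the 31 genes, the exceptions being Atf6, Ppp1r15b, Manf and Hyou1. The C/EBP-ATF response element (CARE), to which ATF4 binds with a partner, was searched on both strands as TGATGNAAN. It occurred in 4 of 8 windows of the ATF4 arm (Atf3, Chac1, Trib3 and Asns) and in 1 of 16 of the ER arm (Herpud1), against 3.95% of all 32851 windows. The ER stress response element (ERSE), to which ATF6 binds with the factor NF-Y, was searched on both strands as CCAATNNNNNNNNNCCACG. It occurred in 7 of 16 windows of the ER arm (Hspa5, Hsp90b1, Calr, Canx, Pdia6, Dnajc3 and Creld2), in 0 of 8 of the ATF4 arm and in 0.119% of all windows. No member's window held both elements, and a match describes letters only, not binding. Each line below runs 5′ to 3′ along the gene's strand, with the match in capitals.
Atf3, chr1:191183406-191183474, minus strand: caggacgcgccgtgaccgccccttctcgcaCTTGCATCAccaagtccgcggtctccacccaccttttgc
Chac1, chr2:119351018-119351086, plus strand: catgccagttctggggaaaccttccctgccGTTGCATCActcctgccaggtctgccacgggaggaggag
Asns, chr6:7693194-7693262, minus strand: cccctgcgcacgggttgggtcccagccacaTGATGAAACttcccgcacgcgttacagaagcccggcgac
Hspa5, chr2:34771995-34772073, plus strand: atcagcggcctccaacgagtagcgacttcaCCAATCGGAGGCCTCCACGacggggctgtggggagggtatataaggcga
Hsp90b1, chr10:86705608-86705686, minus strand: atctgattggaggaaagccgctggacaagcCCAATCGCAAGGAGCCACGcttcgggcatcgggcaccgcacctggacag
Calr, chr8:84847045-84847123, minus strand: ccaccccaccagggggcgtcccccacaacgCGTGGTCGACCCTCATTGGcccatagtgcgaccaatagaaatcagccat
Canx, chr11:50325770-50325848, minus strand: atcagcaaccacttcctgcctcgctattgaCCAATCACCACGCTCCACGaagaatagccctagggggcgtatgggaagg
Creld2, chr15:88819490-88819568, plus strand: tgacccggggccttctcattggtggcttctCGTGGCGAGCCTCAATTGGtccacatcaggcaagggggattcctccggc

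The matches of Atf3, Chac1, Calr and Creld2 read on the opposite strand. Within the windows, the match of Hspa5 began 65 bases before the start site, that of Calr 162, that of Asns 23 and that of Chac1 194. In Trib3 the match TTTACATCA lay after the start site, from base 14 to base 22. Hsp90b1 held a second ERSE match, on the opposite strand, that began 107 bases before the start.

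Most of the 31 genes measured lower in the KO libraries than in the controls, and none passed the test. The comparison asks whether stress response RNA differs when the transporter is deleted in T cells. With limma on log2(FPKM + 1), 0 of 31 members passed an adjusted p of 0.05, and 0% of all 13956 genes tested passed, although 1646 had an unadjusted p under 0.05. With limma-voom on implied reads 0 of 13927 genes passed and 1397 had an unadjusted p under 0.05. Estimates were lower in KO for 29 members and higher for 2, Sdf2l1 and Creld2, whereas 43.1% of all tested genes had lower estimates. At an unadjusted limma p under 0.05 there were 11 members, all lower, against 6.46% of all tested genes lower. In 12 members every KO library lay below every control, against 9.44% of all tested genes, and in 0 members every KO library lay above, against 6.70% of all tested genes. The median log2 difference was -1.08 over the ATF4 arm, -1.01 over the sensors and transcription factors and -0.36 over the ER chaperone arm, beside 0.10 over all tested genes. Quantile normalization moved the median of all genes to -0.12 and the share with lower estimates to 57.8%, and gave 30 of 31 members a lower estimate.

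**Figure D1:**
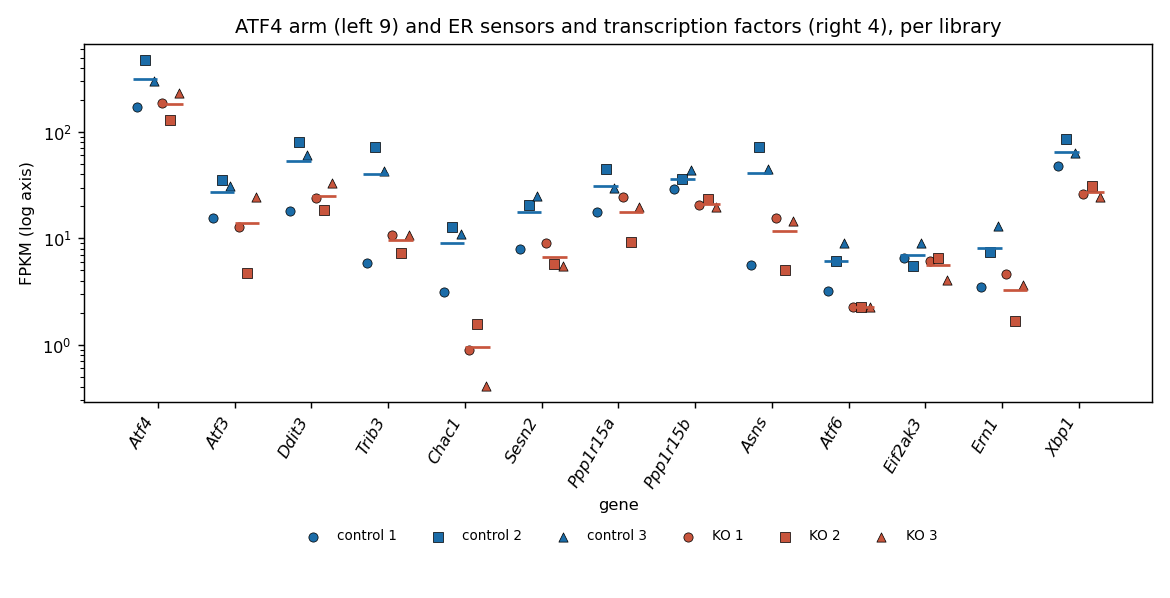
FPKM on a log axis for the 9 genes of the ATF4 arm and the 4 ER sensors and transcription factors. Each symbol is 1 library (blue control, red KO; circle, square and triangle for replicate 1, 2 and 3) and each line a group mean. The blue squares and triangles, control 2 and 3, sit above the other 4 libraries for all 9 genes of the ATF4 arm, while control 1 lies among or near the KO libraries for most.

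In the ATF4 arm, the separation lay mainly between 2 of the controls and all other libraries. Atf4, the transcription factor itself, measured 172, 471 and 301 FPKM across control 1 to 3, against 185, 129 and 233 across KO 1 to 3. Control 1 was within the range of the KO libraries, and control 2 and 3 were above it. All 9 members had control 2 and control 3 above each of the other 4 libraries, against 15.4% of all tested genes. The mean of control 2 and 3 was 2.24 times control 1 for Atf4, 10.5 times for Asns, 9.76 times for Trib3 and 3.90 times for Ddit3, with a median of 2.86 over the arm and 0.849 over all tested genes.

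Within the arm, the ratio of the mean of control 2 and 3 to control 1 was highest for Asns, Trib3 and Ddit3. Asns, the enzyme that makes asparagine, measured 5.56, 71.7 and 44.9 FPKM in the controls, against 15.4, 5.01 and 14.5 in KO. Trib3, a pseudokinase that restrains ATF4 and CHOP, measured 5.88, 72.2 and 42.7 FPKM in the controls, against 10.7, 7.28 and 10.7 in KO. Control 1 was below 2 of the 3 KO libraries for Asns and below all 3 for Trib3. Ddit3, which encodes CHOP, measured 18.1, 81.2 and 60.1 FPKM in the controls, against 23.7, 18.5 and 33.4 in KO, so control 1 was the lowest of all 6. Their log2 differences were -1.28 (SE 0.94) for Asns, -1.43 (SE 0.85) for Trib3 and -0.84 (SE 0.57) for Ddit3. Without control 2 and 3 they were 0.81, 0.60 and 0.42, which leaves control 1 as the only control library. Asns and Trib3 both carry a CARE match and Ddit3 had none in its window.

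Chac1, which degrades glutathione and whose promoter holds the CARE match printed above, was the member of this arm with the smallest p. It measured 3.10, 12.9 and 10.9 FPKM in the controls, against 0.893, 1.58 and 0.407 in KO. Every KO library was below every control, including control 1. The log2 difference was -2.21 (SE 0.54, limma unadjusted p = 0.00582, adjusted p = 0.417). Depth limits this gene, since the KO values rest on 5, 38 and 2 implied reads and the control values on 60, 316 and 269. Ppp1r15b, the constitutive partner of the phosphatase that removes the phosphate from eIF2, measured 28.9, 36.2 and 43.7 FPKM in the controls, against 20.5, 23.2 and 19.5 in KO. Its groups also did not overlap, with a log2 difference of -0.74 (SE 0.22). These were the only 2 of the 9 members in which every KO library lay below control 1, or 22.2%, against 27.0% of all tested genes.

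The remaining members of this arm had overlapping groups. Atf3, a stress-induced transcription factor with a CARE match, measured 15.5, 35.4 and 30.7 FPKM in the controls, against 12.8, 4.74 and 24.4 in KO. Ppp1r15a, the inducible partner of the same phosphatase, measured 17.8, 44.7 and 29.8 FPKM in the controls, against 24.3, 9.25 and 19.6 in KO. Sesn2, a leucine sensor that restrains mTORC1, measured 7.92, 20.7 and 24.7 FPKM in the controls, against 9.0, 5.70 and 5.46 in KO. In each of these 3 genes KO 2, the deep KO library with the least S100a9, or KO 3 was lowest, and the top 2 libraries were control 2 and 3. Between control 2 and control 3, 7 of the 9 members were higher in control 2, against 49.1% of all tested genes. This was not particular to the ATF4 arm, as 15 of 18 genes of the ER arm had the same order. Of the sensors and transcription factors, 1 of 4 had it. S100a9 was 1.86 times as high in control 3, and Hbb-bs was higher in control 2. With 1 library on each side, the order has no replicate check.

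Among the sensors and transcription factors, Xbp1 and Atf6 had groups that did not overlap. Xbp1 measured 47.7, 84.9 and 63.0 FPKM in the controls, against 25.9, 31.3 and 24.5 in KO. It had the smallest p of the 31 members, with a log2 difference of -1.20 (SE 0.26, limma unadjusted p = 0.00315, adjusted p = 0.417). Even control 1, the lowest control, was above the highest KO library, KO 2, and both of these libraries were rich in Jchain. Atf6 measured 3.18, 6.17 and 8.97 FPKM in the controls, against 2.25, 2.26 and 2.27 in KO, a log2 difference of -1.04 (SE 0.38). The KO libraries were nearly equal, and the controls differed among themselves by more than control 1 differed from the KO libraries. Ern1, the sensor that splices Xbp1, measured 3.52, 7.43 and 13.1 FPKM in the controls, against 4.61, 1.66 and 3.62 in KO, with control 1 inside the KO range. Eif2ak3, the sensor upstream of Atf4, measured 6.57, 5.44 and 9.01 FPKM in the controls, against 6.16, 6.59 and 4.09 in KO. It was the only gene of these 4 in which control 2 and 3 were not the top 2 libraries, and its log2 difference was -0.27 (SE 0.31).

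**Figure D2:**
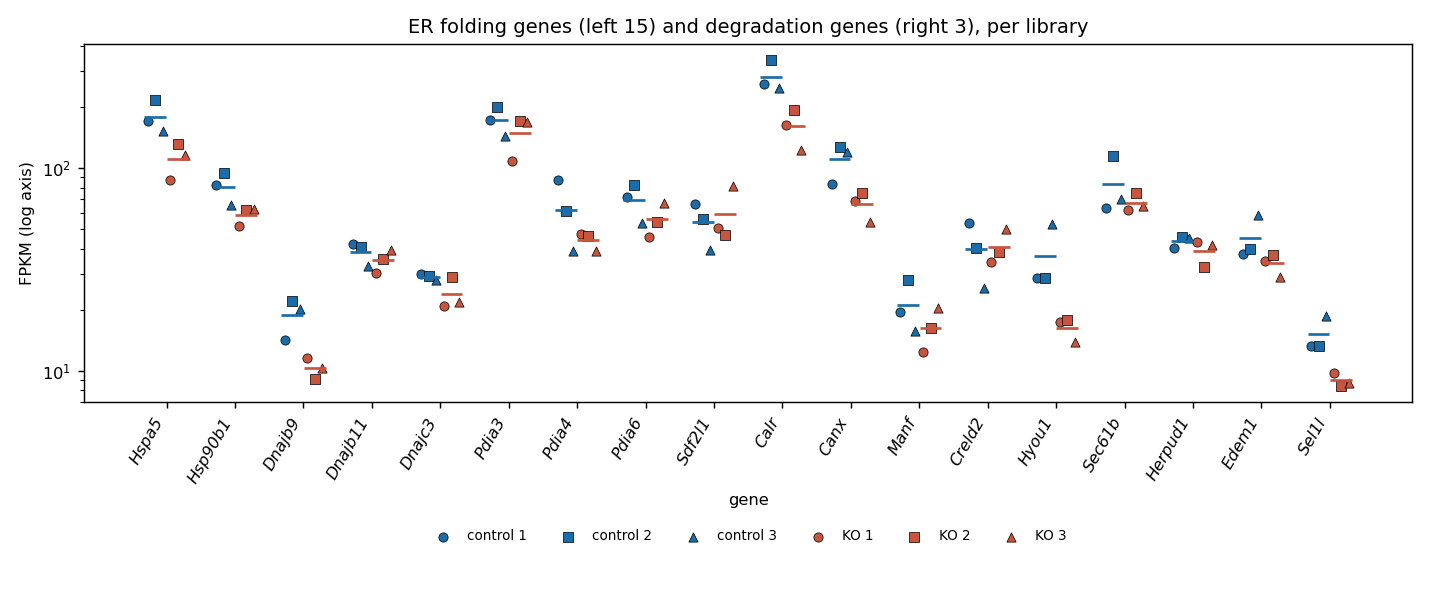
FPKM on a log axis for the 15 ER folding genes and the 3 degradation genes, drawn as in the plot of the ATF4 arm. Controls and KO libraries lie closer together than in the ATF4 arm, and for Hspa5, Calr, Canx, Hyou1 and Sel1l all 3 red symbols are below all 3 blue ones.

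The ER chaperone arm differed less between groups, and its controls differed less among themselves. Hspa5, the main ER chaperone (BiP), measured 171, 216 and 152 FPKM across control 1 to 3, against 86.8, 131 and 116 across KO 1 to 3. Its groups did not overlap, and control 1, with little S100a9, lay between control 2 and 3. The log2 difference was -0.69 (SE 0.25, limma adjusted p = 0.417). Calr, a lectin chaperone of glycoproteins, was the most abundant gene of the arm, at 260, 339 and 247 FPKM in the controls, against 163, 193 and 123 in KO. Its log2 difference was -0.83 (SE 0.26). Canx, the membrane-bound relative of Calr, measured 83.1, 126 and 120 FPKM in the controls, against 68.5, 75.5 and 54.3 in KO. Hsp90b1, the HSP90 of the ER, measured 82.1, 94.7 and 65.5 FPKM in the controls, against 51.4, 61.9 and 62.4 in KO, so that its groups were only just apart. These 4 genes all carry an ERSE match. The other 3 carriers, Pdia6, Dnajc3 and Creld2, had overlapping groups and log2 differences of -0.30, -0.28 and 0.08.

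Cofactors of Hspa5 varied in size of difference. Hyou1, which exchanges nucleotide on Hspa5, had the widest difference of the arm. It measured 28.7, 28.6 and 52.9 FPKM in the controls, against 17.3, 17.7 and 13.8 in KO, a log2 difference of -1.08 (SE 0.30, limma unadjusted p = 0.00991). Dnajb9, a J-domain cochaperone, measured 14.1, 22.0 and 20.2 FPKM in the controls, against 11.5, 9.11 and 10.3 in KO, a log2 difference of -0.79 (SE 0.25). Both had KO values below all controls. The J-domain genes Dnajb11 and Dnajc3 differed less, at 38.6 ± 4.99 and 35.0 ± 4.53 FPKM (SD, n = 3 each) for Dnajb11 and 29.1 ± 0.941 and 23.9 ± 4.50 FPKM for Dnajc3. Sdf2l1, a partner of Dnajb11, measured 66.5, 55.9 and 39.3 FPKM in the controls, against 50.7, 46.5 and 81.4 in KO, with KO 3 the highest of all 6.

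The disulfide isomerases among the members, Pdia3, Pdia4 and Pdia6, did not separate the groups. Outside the members, P4hb did, at 192, 345 and 241 FPKM in the controls, against 119, 154 and 153 in KO, and Pdia5 did not. Pdia3, which works with Calr and Canx, measured 172, 199 and 144 FPKM in the controls, against 108, 171 and 168 in KO. Pdia6 measured 69.2 ± 14.7 FPKM in the controls, against 55.8 ± 10.8 in KO. Pdia4 measured 87.3, 61.0 and 38.7 FPKM in the controls, against 47.2, 46.2 and 39.1 in KO, and control 1, the library with the most Jchain, was far above the rest. Creld2 had the same order of controls, at 53.6, 40.3 and 25.6 FPKM, against 40.9 ± 8.09 in KO. Manf, a secreted ER stress protein, measured 21.1 ± 6.30 and 16.3 ± 3.93 FPKM, and Sec61b, a subunit of the channel through which proteins enter the ER, 83.1 ± 28.2 and 67.4 ± 6.57. The 3 genes of ER-associated degradation split. Sel1l, the scaffold of the ubiquitin ligase complex, measured 13.3, 13.3 and 18.7 FPKM in the controls, against 9.77, 8.39 and 8.71 in KO, a log2 difference of -0.68 (SE 0.23). Edem1, which directs glycoproteins to degradation, measured 37.8, 39.6 and 58.4 FPKM in the controls, against 34.8, 37.4 and 29.1 in KO. Herpud1, which holds both a degradation role and a CARE match, measured 43.6 ± 2.97 and 39.0 ± 5.63 FPKM, with overlapping groups.

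Over the 18 genes of this arm, 8 had every KO library below every control, against 9.44% of all tested genes. In 14 of them every KO library lay below control 1, or 77.8%, against 27.0% of all tested genes. Control 2 and 3 were above the other 4 libraries in 4 of the 18, Dnajb9, Canx, Herpud1 and Edem1, or 22.2%, against 15.4% of all tested genes. The mean of control 2 and 3 was 1.10 times control 1 in the median. Control 1 and KO 2, the deep libraries with little S100a9 and much Jchain, can be set side by side without a test, as 1 library each. Their cell content still differed, with S100a9 at 164 FPKM in control 1 against 25.7 in KO 2. Summed macrophage markers were 281 against 73.7 FPKM and platelet markers 341 against 62.1. T cell markers were 1317 against 2099 FPKM, and B cell markers were close, at 39.6 and 43.4. Control 1 was higher than KO 2 for 17 of 18 ER genes and 7 of 9 genes of the ATF4 arm, against 62.3% of all tested genes. The median log2 difference of KO 2 from control 1 was -0.38 over the ER arm and -0.41 over the ATF4 arm, beside -0.14 over all tested genes.

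**Figure D3:**
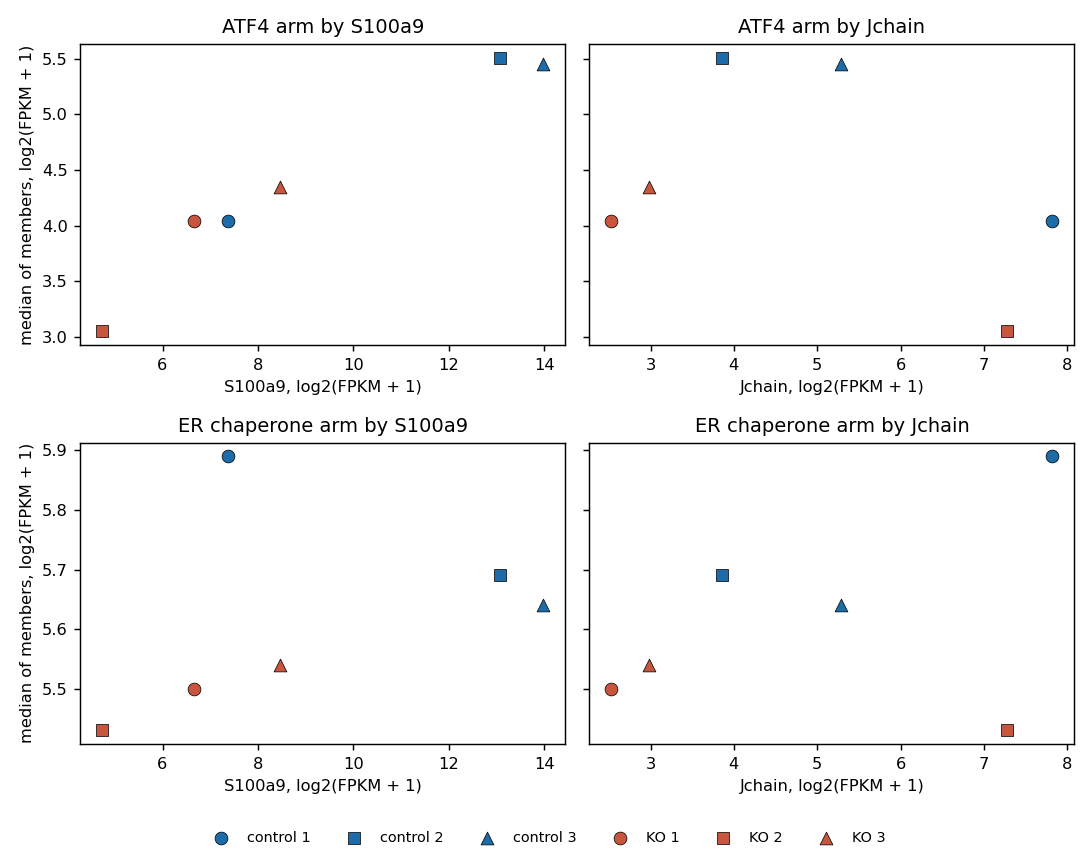
Median log2(FPKM + 1) of the ATF4 arm (top) and the ER chaperone arm (bottom) in each library, against log2(FPKM + 1) of S100a9 (left) and Jchain (right). Symbols are libraries as in the plots of single genes, and the vertical axes do not start at 0. The ATF4 arm is highest in the 2 libraries with the most S100a9, whereas the ER arm is highest in control 1, with the most Jchain, and lowest in KO 2, with the next most.

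The level of each arm was set beside neutrophil and plasma cell RNA library by library. The median log2(FPKM + 1) of the ATF4 arm stood at 4.04, 5.51 and 5.45 across control 1 to 3, against 4.04, 3.05 and 4.35 across KO 1 to 3. KO 2, with the least S100a9, was lowest, KO 3 came next below control 2 and 3, and these 2 libraries, with the most S100a9, were highest. KO 2 also had the least macrophage RNA (73.7 FPKM summed) and KO 3 the most (502), and the part of each cell type in this order was not tested. The median of the ER arm was 5.89, 5.69 and 5.64 in the controls and 5.50, 5.43 and 5.54 in the KO libraries, so that all 3 controls were above all 3 KO libraries. Control 3 at 5.64 and KO 3 at 5.54 were nearest, beside a pooled SD within groups of 0.10. The part of neutrophil RNA in the order of the ER arm was not tested. As the libraries fall into separate groups by S100a9 and by Jchain, no correlation over the 6 is given.

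A limma fit over all genes with genotype and log2(S100a9 FPKM + 1) as terms gave each gene a slope on S100a9. Slopes were above 0 for 9 of 9 genes of the ATF4 arm, with a median of 0.18 log2 units per log2 unit of S100a9, for 3 of 4 sensors and transcription factors, and for 8 of 18 ER genes, with a median of -0.01. Over all tested genes 44.6% of slopes were above 0. No member's slope passed an adjusted p of 0.05, as against 0.0430% of all tested genes. At an unadjusted limma p under 0.05 there were 6 members of the ATF4 arm with a slope above 0 (Atf4, Atf3, Ddit3, Trib3, Sesn2 and Asns), Ern1 among the sensors and none of the ER arm, against 5.86% of all tested genes. The slope was 0.46 (SE 0.09, limma adjusted p = 0.116) for Asns and 0.28 (SE 0.05, limma adjusted p = 0.114) for Ddit3. Pdia4 was the only gene of the ER arm with an unadjusted limma p under 0.05, at a slope of -0.13 (SE 0.04).

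With S100a9 in the fit, the median difference between KO and control was 0.14 over the ATF4 arm, -0.36 over the sensors and transcription factors and -0.37 over the ER arm, beside -0.06 over all tested genes. The median of the ATF4 arm thus changed sign, while that of the ER arm was close to its value of -0.36 without S100a9. Chac1 at -1.46 and Xbp1 at -0.95 kept lower estimates, and Atf4, Atf3, Ddit3, Trib3, Ppp1r15a, Asns, Ern1 and Herpud1 turned positive, at 0.03 to 0.97. Without control 2 and 3 the medians were -0.10, -0.29 and -0.35 over the ATF4 arm, the sensors and the ER arm. Genotype and S100a9 are partly aligned in these libraries, with 3 residual degrees of freedom. High S100a9, high red cell RNA and low T cell RNA cannot be told apart, since all fell in control 2 and 3. Among the controls, these libraries also had the least Jchain. The T cell markers summed to 411 and 319 FPKM there, against 1260 to 2099 in the other libraries.

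With log2(Jchain FPKM + 1) in place of S100a9, 0 of 31 slopes passed, as did 0% of all tested genes. Slopes were below 0 for all 9 genes of the ATF4 arm, with a median of -0.28, and 5 of them (Atf4, Atf3, Ddit3, Ppp1r15a and Asns) had an unadjusted limma p under 0.05, against 7.12% of all tested genes. S100a9 itself had a slope of -0.95 on Jchain (SE 0.33, limma unadjusted p = 0.0272). The slopes on Jchain and those on S100a9 are therefore not separate evidence. Over the ER arm 10 of 18 slopes were above 0, with a median of 0.01 and no unadjusted p under 0.05. The median difference between KO and control in this fit was -1.42 over the ATF4 arm, -1.20 over the sensors and -0.34 over the ER arm. The order of Jchain, which the T cell markers shared, with control 1 and KO 2 each at the top of their group, was found in 1 of 31 members, Dnajc3, against 19.4% of all tested genes. Of the 51 further ER-side genes listed, 7 had it, or 13.7%. The next 3 genes, which plasma cells express strongly, were chosen after their values were seen, from the 7 that had this order. Txndc5, a disulfide isomerase relative, measured 37.1, 13.6 and 12.1 FPKM in the controls, against 25.9, 31.3 and 21.7 in KO. Mzb1, an ER cochaperone of antibody-secreting cells, measured 32.4, 7.06 and 7.64 FPKM and 14.2, 16.3 and 15.1. Derl3, a degradation factor, measured 5.09, 0.501 and 0.768 FPKM and 1.32, 4.85 and 2.84. Fkbp11, on the same list, did not have the order, at 3.23, 6.65 and 2.18 FPKM in the controls, against 2.40, 1.96 and 0 in KO. How much plasma cell or T cell RNA adds to the members was not tested.

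**Figure D4:**
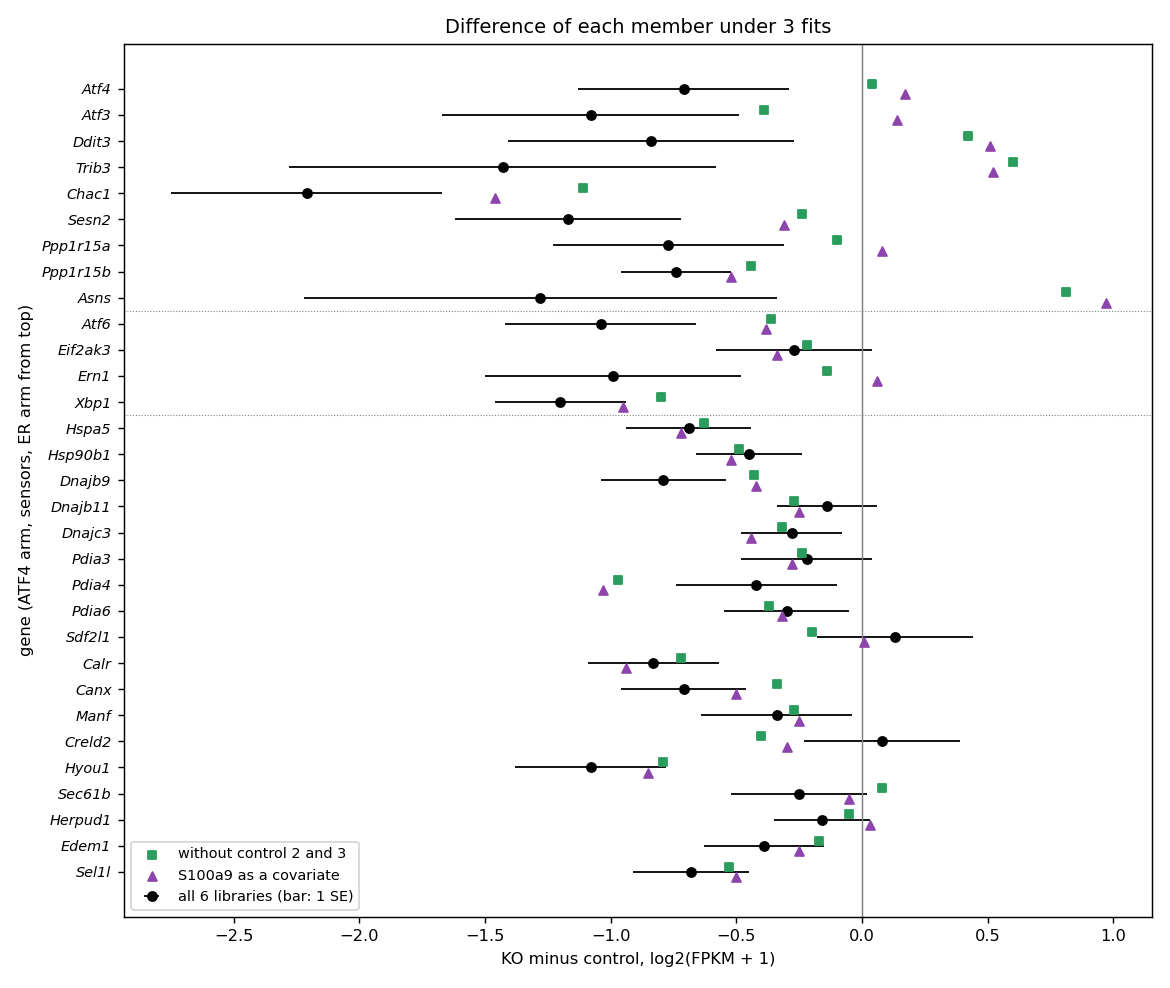
Difference between KO and control on the log2(FPKM + 1) scale for each of the 31 members. Black points are the fit on all 6 libraries with bars of 1 SE, green squares the fit without control 2 and 3, and purple triangles the fit with S100a9 as a covariate. In the ATF4 arm at the top the green and purple symbols move towards or past 0, most of all for Asns and Trib3, while for most ER genes they stay near the black points.

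In the fit on group alone, leaving out single libraries brought up to 2 members past the threshold, in the KO-lower direction. Without control 1, Chac1 (log2 difference -2.76, limma adjusted p = 0.0372) and Trib3 (-2.44, limma adjusted p = 0.0351) passed, with 217 genes (1.55% of all tested) lower and 146 higher. Without KO 2, Chac1 (-2.43, limma adjusted p = 0.0387) and Xbp1 (-1.30, limma adjusted p = 0.0473) passed, with 134 genes (0.960% of all tested) lower and 1687 higher. That fit kept only KO 1 and KO 3, the shallow libraries, so genotype and depth cannot be told apart in it. Chac1 rested there on 5 and 2 implied reads. The fit without control 1 kept only control 2 and control 3, the controls rich in S100a9. With Jchain also in the fit, which left 2 residual degrees of freedom, more passed. Without control 1, these were 10 members, all lower (Atf3, Atf6, Ddit3, Trib3, Chac1, Sesn2, Ppp1r15a, Asns, Xbp1 and Dnajb9), with 826 genes (5.92%) lower and 1692 higher. Without KO 2, they were 6 members, all lower (Ddit3, Trib3, Chac1, Sesn2, Asns and Xbp1), with 640 genes (4.59%) lower and 2145 higher. With S100a9 in the fit, 0 members passed in any of the 6 fits that left out 1 library, among them that without KO 2, in which 1787 genes passed. Over the 16 alternatives that change 1 choice, the limma adjusted p of Chac1 ran from 0.0372 to 0.997, that of Xbp1 from 0.0473 to 0.997 and that of Trib3 from 0.0351 to 0.997. The log2 difference of Xbp1 stayed between -1.40 and -0.80 and that of Chac1 between -3.03 and -1.11 in each of them, while that of Trib3 ran from -2.44 to 0.60. Without KO 1 and 3, which leaves KO 2 as the only KO library, the median was -1.54 over the ATF4 arm, -1.02 over the sensors and -0.33 over the ER arm.

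Other genes of the 2 pathways were taken from lists by function. The list of further ATF4-side genes held 30, of which 29 were tested, and 0 passed. Estimates were lower for 22 and higher for 7, with a median log2 difference of -0.43. In 15 of the 29, or 51.7%, control 2 and 3 were above the other 4 libraries, against 15.4% of all tested genes. Slc7a11, the cystine transporter, measured 12.6, 54.8 and 79.8 FPKM in the controls, against 5.67, 3.91 and 7.98 in KO. Slc7a5, a transporter of large neutral amino acids, measured 33.5, 44.8 and 47.4 FPKM in the controls, against 12.9, 26.2 and 8.26 in KO. Aars, the alanine tRNA synthetase, measured 18.2, 39.4 and 33.1 FPKM in the controls, against 12.5 ± 2.30 in KO, where the highest library was KO 2. All 3 had every KO library below every control, including control 1. They were named for their small p, and over the list this held for 9 of 29 genes, against 9.44% of all tested genes. In 1 gene of the list every KO library lay above, against 6.70% of all tested genes. With S100a9 in the fit, the log2 difference of Slc7a11 moved from -2.57 to -0.89 and that of Aars from -1.16 to -0.72. That of Slc7a5 moved from -1.48 to -1.63. A few ATF4-side genes measured higher in KO. Stc2, a secreted glycoprotein, measured 0.825 ± 0.300 FPKM in the controls, against 3.02 ± 1.21 in KO with no overlap. Bbc3, the cell death gene PUMA, measured 65.2, 22.3 and 25.3 FPKM in the controls, against 124, 55.0 and 166 in KO. Eif2ak4, the kinase that senses amino acid shortage, measured 4.58 ± 0.364 and 9.75 ± 5.79 FPKM, high in KO 1 and KO 3 only, and Ddit4, an mTORC1 inhibitor, 76.3 ± 40.8 and 110 ± 37.3.

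Of 51 further ER-side genes, all tested, 0 passed, 42 had lower and 9 higher estimates, and the median log2 difference was -0.33. In 17 of them every KO library lay below every control and in 1, Creb3, every KO library lay above, against 9.44% and 6.70% of all tested genes. Lman1, a cargo receptor between the ER and the Golgi, measured 12.3, 13.5 and 13.4 FPKM in the controls, against 6.20, 8.15 and 5.61 in KO. Sec24d, a coat protein of vesicles that leave the ER, measured 6.40, 7.46 and 8.83 FPKM in the controls, against 3.84, 2.26 and 2.95 in KO. The log2 differences were -0.89 (SE 0.24) for Lman1 and -1.10 (SE 0.29) for Sec24d, both with a limma adjusted p of 0.417. Creb3, a membrane-bound transcription factor, measured 11.4 ± 1.58 FPKM in the controls, against 14.9 ± 0.989 in KO.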

How the data were processed

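CD8+ T cell RNA was profiled in 3 control and 3 KO libraries. The authors deposited 1 table of FPKM per library; the unit was read from the values, as no label states it. HTSeq 0.6.0, Bowtie2 2.2.3, HISAT2 2 and the build mm8 appear in the submitters' processing notes, which give no role or order. How FPKM were made, from which annotation and with which strand setting is not given in the sources used here. Symbols came from GENCODE M21, which matched 35313 of 35458 identifiers. Multiplying FPKM by exon length and dividing by a constant for each library recovered reads (92.1% to 93.4% of values under 200 reads lay within 0.02 read of a whole number), hence the implied depths. For a 1 kb gene, 3 reads correspond to 0.200 to 0.253 FPKM in the controls and KO 2 and to 0.877 and 0.998 in KO 1 and KO 3. Reads and floors cover counting error only.

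The 13956 genes that reached 1 FPKM in 3 or more libraries were fitted as log2(FPKM + 1) with limma 3.58.1 (R 4.3.3) on group alone, with an intensity trend, and p-values were adjusted by Benjamini-Hochberg at a threshold of 0.05. Log2 differences are KO minus control on this scale, which understates changes of low genes. The smallest exact p of 3 against 3 libraries is 0.1, so no permutation test of single genes was used. Covariate fits added log2 S100a9 or Jchain. The procedure was tested on counts simulated around a profile shared by all libraries, apart from genes set to differ. That test does not cover the differences in cell content among these libraries. The members, arms and lists were chosen with earlier results of these data known. All 31 members are reported, and of 2 lists of other pathway genes the 5 with the smallest p in each direction, with a few more named for comparison. Alternatives were a pseudocount of 0.1, no filter, quantile normalization, a replicate block, left-out libraries, covariates, protein-coding genes and limma-voom on implied reads. Libraries of a group differed by far more than sampling noise (chi-square per gene 16.4 to 195). Tables were handled with Python 3.11.15, pandas 2.3.3 and numpy 2.4.6 and plots with matplotlib 3.10.9.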

Additional observations from a re-analysis of the deposited data

How the results depend on the processing

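With all 6 libraries 0 genes and 0 members passed, also with limma-voom, where 1397 genes had an unadjusted p under 0.05 against 1646 in limma on FPKM. In the fit on group alone, leaving out 1 library gave 0 to 1821 genes and 0 to 2 members past the threshold, 363 genes without control 1 and 1821 without KO 2. With Jchain as a covariate it gave 0 to 2785 genes and 0 to 10 members, the latter without control 1. For slopes on S100a9 it gave 0 to 3 members (Ddit3, Trib3 and Asns without KO 2), and on Jchain 0 to 1 (Asns without control 1). Without KO 2 only the shallow KO libraries remained, and without control 1 only the controls rich in S100a9. With the replicate block 0 genes passed, and 7 members had an unadjusted p under 0.05, against 11 without it. The labels do not say whether the numbers pair the libraries. Deviations of same-numbered libraries correlated at 0.11, 0.02 and 0.02 across genes, and those of differently numbered ones at -0.21 to 0.14. These ranges overlap, and cell content and depth differ within groups, so the correlations cannot decide it. The ATF4 median of -1.08 became 0.14 with S100a9 as a covariate and -0.10 without control 2 and 3, and the sensor median of -1.01 became -0.36 and -0.29. The ER median of -0.36 was -0.51 after quantile normalization, and -0.50 to -0.30 with 1 library left out. The cause of these shifts was not tested. Of 496 log2 differences of members under alternatives, 467 kept sign and side of the threshold, 4 passed it and 25 changed sign, and 18 members never changed sign. With S100a9 as a covariate, signs changed for Atf4 (0.17), Atf3 (0.14), Ddit3 (0.51), Trib3 (0.52), Ppp1r15a (0.08), Asns (0.97), Ern1 (0.06), Herpud1 (0.03), Creld2 (-0.30) and Ddit4 (-0.44). Without control 2 and 3 they changed for Atf4 (0.04), Ddit3 (0.42), Trib3 (0.60), Asns (0.81), Sdf2l1 (-0.20), Creld2 (-0.40), Sec61b (0.08) and Ddit4 (-0.21). Without KO 1 and 3 they changed for Dnajc3 (0.00), Pdia3 (0.01), Sdf2l1 (-0.18) and Eif2ak4 (-0.45), and after quantile normalization for Creld2 (-0.04). With 1 library left out, Sdf2l1 ran from -0.12 to 0.29, Creld2 from -0.20 to 0.32 and Sec61b from -0.42 to 0.01. Depth limits KO 1 and KO 3, where Chac1 had 5 and 2 implied reads.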
